A study of Rattus norvegicus with 31 samples.

Results

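The rat mitochondrial genome holds 37 genes, and all 37 had an entry in the deposited tables, of 32883 gene entries in all. They were chosen by the chromosome field of the tables, which reads MT, and by no measured value. The 37 entries comprised 13 protein-coding genes, 2 ribosomal RNA (rRNA) genes and 22 transfer RNA (tRNA) entries. RNA was sequenced from fat of male Sprague-Dawley rats aged 10 to 15 weeks, with a stated time point of 15 weeks. In the coarctation groups a silk ligature narrowed the mid-thoracic aorta, and in the sham groups the same ligature was left loose. The labels state a pressure gradient of about 20 mmHg across the ligature 4 weeks after the operation. Perivascular adipose tissue (PVAT), the fat around the aorta, was sampled on either side of the ligature, together with brown adipose tissue (BAT). The sham operation is represented by 5 libraries from PVAT above the ligature, named sham above, 5 named sham below and 4 named sham BAT. Coarctation is represented by 6 named coarct above, 6 named coarct below and 5 named coarct BAT. Every group of the 31 libraries thus had surgery.

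Mitochondrial DNA encodes core subunits of the respiratory chain and of ATP synthase, while all other subunits are made from nuclear genes. Both strands are transcribed into long precursors, and the tRNAs that lie between most genes are cut out to release the mRNAs and rRNAs. ND6 is the sole protein-coding gene of the light strand. Brown adipocytes are packed with mitochondria, in which UCP1 turns the proton gradient into heat, and thoracic PVAT of rodents resembles brown fat.

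Library totals ran from 15713160 to 26530733 counts. Brown adipocyte transcripts were present in every group, with Ucp1 between 830.4 and 2504 CPM (a gene's counts scaled to a common library total). Of 13 listed brown adipocyte markers, 12 had an entry. Their sum ran from 10510 CPM in a sham below library to 20262 CPM in a coarct BAT library. Elovl3 of this list had no counts in any library of sham above or sham BAT. Cardiac muscle markers, all 11 of the list being in the table, summed to 42.3 to 2069 CPM in sham above and 4.15 to 3193 CPM in coarct above. Their sum was 1.30 to 103 CPM in sham below, 1.37 to 629 CPM in coarct below, at most 9.42 CPM in sham BAT and at most 69.2 CPM in coarct BAT. Skeletal muscle markers, with 9 of 11 in the table, had a median sum of 744 CPM in sham BAT and 31.2 CPM in coarct BAT, against 6.94 to 25.9 CPM in the PVAT groups, and single libraries reached 6350 CPM in coarct BAT, 2932 in coarct below, 1914 in coarct above, 1324 in sham BAT and 845 in sham below. The slope of nuclear gene levels on gene length, both on a log2 scale, lay between -0.42 in coarct BAT 29 and 0.21 in sham below 28, with -0.21 in sham above 20 and -0.15 in sham below 24. The part of these muscle transcripts and of the length trend in the values below was not tested. In whole tissue, fewer cells of a type and less RNA per cell cannot be told apart. Nuclear copies of mitochondrial DNA could share reads with these genes, and whether counting used strand is not given in the sources used here, so reads of overlapping or antisense neighbours cannot be told apart.

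The mitochondrial genes took 33.8% to 49.9% of all counts of a library. Of the 246842914 mitochondrial counts in the 31 libraries together, 98.4% fell on the 13 mRNA genes. Both rRNA genes, which encode the RNA of the mitochondrial ribosome, stood far below the leading mRNAs per length. On the FPKM scale (counts per gene length and library total), 12S averaged 2306 ± 2245 (SD, n = 31) and 16S 2586 ± 1793 (SD, n = 31). The files name neither rRNA, and the names used here follow their lengths and places, with AY172581.9 as 12S (958 bases, MT positions 68 to 1025) and AY172581.24 as 16S (1571 bases, positions 1094 to 2664). Positions are those of the files, whose genome build is not given in the sources used here, and ends were computed from start and length.

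**Figure D1:**
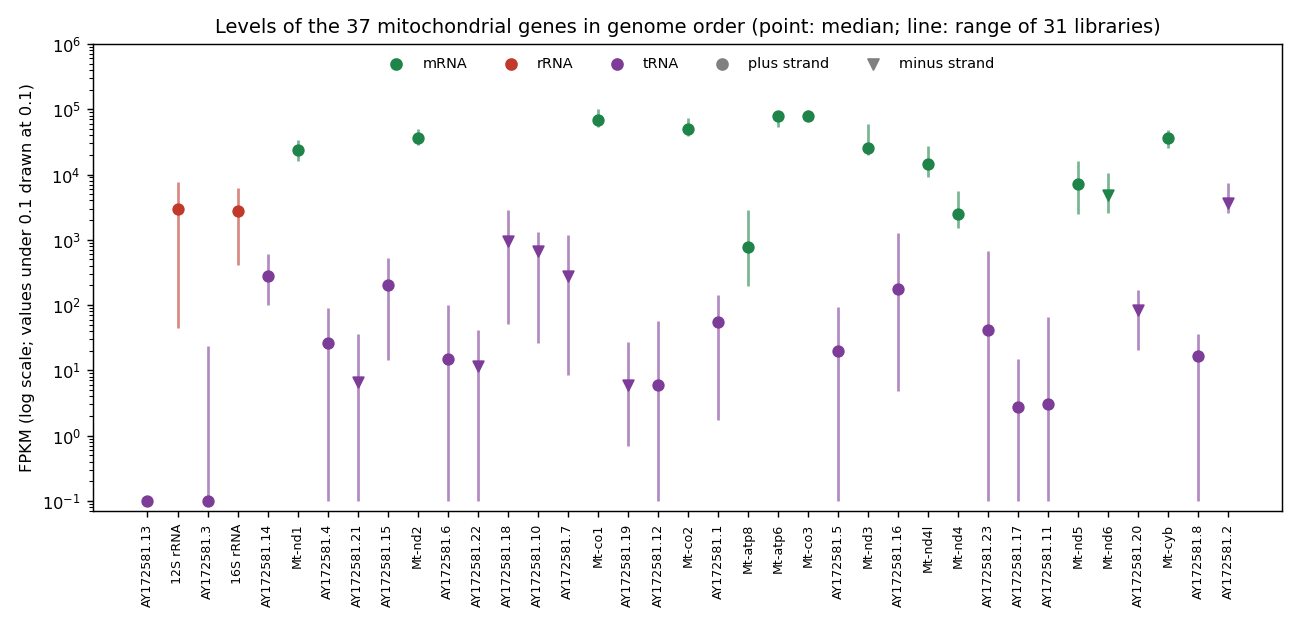
Levels of the 37 mitochondrial genes in FPKM on a log scale, in their order along the genome. Points are medians and lines the range over 31 libraries, with colour for the class of RNA and triangles for the minus strand. The mRNAs stand mostly above 1000 FPKM, with Mt-atp8 the lowest among them on average, and AY172581.2 stands above the other tRNA entries.

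Per length, the subunits of cytochrome c oxidase and Mt-atp6 led the mRNAs. Mt-co3, a core subunit of the oxidase, averaged 79680 ± 7522 FPKM (SD, n = 31). Mt-atp6, which encodes a proton channel subunit of ATP synthase, stood at 78079 ± 10710 FPKM (SD, n = 31). These leaders did not differ beyond their spread, and Mt-co3 was above Mt-atp6 in 17 of 31 libraries. Mt-co1, the catalytic oxidase subunit, followed at 72146 ± 11030 FPKM and was above Mt-co2 in 31 of 31 libraries. Mt-co2, which takes electrons from cytochrome c, averaged 50786 ± 7740 FPKM.

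Mt-nd2, a membrane subunit of complex I, and Mt-cyb, the cytochrome b of complex III, came next and did not differ beyond their spread. They averaged 36675 and 36619 FPKM, and Mt-nd2 was the higher in 16 of 31 libraries. The remaining mRNAs of complex I, the NADH dehydrogenase, were lower and spread over a wide range. Mt-nd3 averaged 29037 FPKM, Mt-nd1 24377 FPKM and Mt-nd4l 15239 FPKM. Mt-nd5 averaged 7041 FPKM, Mt-nd6 5079 FPKM and Mt-nd4 2747 FPKM. Mt-nd3 was above Mt-nd1 in 23 of 31 libraries and Mt-nd5 above Mt-nd6 in 24 of 31. Mt-nd6 was above Mt-nd4 in 29 of 31 libraries. Mt-atp8, the small accessory subunit of ATP synthase, was last at 1007 ± 721 FPKM and below Mt-nd4 in 29 of 31 libraries.

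As shares of the mitochondrial mRNA counts, Mt-co1 held 27.9% ± 2.77 (SD, n = 31), Mt-co3 15.7% ± 0.916 and Mt-atp6 13.3% ± 0.955. The share of Mt-co3 varied least between libraries, with a coefficient of variation of 5.84%. Mt-atp6, Mt-cyb, Mt-nd2 and Mt-co1 also stayed within 10% by that measure, at 7.18%, 9.13%, 9.28% and 9.94%. The scarcer mRNAs varied more. Mt-nd4 reached 27.8%, Mt-nd5 29.2%, Mt-nd6 31.1% and Mt-atp8 67.3%. The highest share of Mt-atp8 was 12.1 times its lowest, against 1.3 times for Mt-co3. Mt-nd5, the longest of the 13 at 1830 bases, spanned 4561 CPM in coarct BAT 19 to 29425 CPM in coarct BAT 29.

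**Figure D2:**
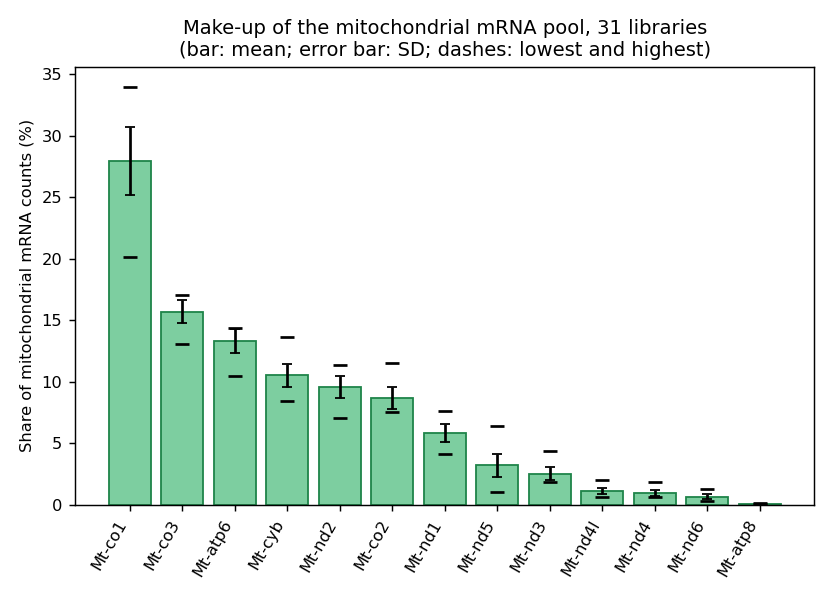
Mean share of each of the 13 mRNA genes in the mitochondrial mRNA counts (%, bars) with the SD over 31 libraries (error bars) and the lowest and highest library (dashes). Mt-co1 holds the largest mean share at 27.9%, and the share of Mt-atp8 stays under 1% in each library.

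Neighbouring genes that share bases differed widely in level. Mt-atp8 (positions 7758 to 7961) overlaps Mt-atp6 (7919 to 8599) by 43 bases, and the FPKM of Mt-atp8 was 0.0126 ± 0.00821 (SD, n = 31) of that of Mt-atp6. Mt-nd4l (9870 to 10166) overlaps Mt-nd4 (10160 to 11537) by 7 bases, and Mt-nd4 stood at 0.185 ± 0.0553 (SD, n = 31) of Mt-nd4l. In mammals each of these pairs is carried by a shared mRNA. How reads in shared bases were assigned is not given in the sources used here, and Mt-atp8 is 204 bases long, so these ratios hold for the deposited counts. Mt-nd6 (13543 to 14061, minus strand) shares 23 bases with Mt-nd5. The FPKM of Mt-cyb, its neighbour on the plus strand, was 7.91 ± 2.52 (SD, n = 31) times that of Mt-nd6, with a range of 3.12 to 17.

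The 12S rRNA lay in 2 separate ranges, each present in all 6 groups. It lay between 2572 and 7253 CPM in 17 libraries and between 42 and 79 CPM in the other 14. Above the ligature its CPM was 4524, 46.3, 62.9, 3445 and 46 in sham above, and 2572, 49, 52.7, 46.5, 3761 and 3033 in coarct above. Below the ligature it was 64.2, 2797, 3549, 4823 and 4210 in sham below, and 3407, 3358, 52.7, 42, 70.9 and 4613 in coarct below. In brown fat it was 7253, 46.9, 5115 and 79 in sham BAT, and 3153, 3361, 4699, 71.3 and 70.9 in coarct BAT. Every group held libraries of both ranges, with 4 high and 1 low in sham below as the most uneven split.

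The 16S rRNA followed the same split with a smaller gap. Its CPM above the ligature was 4288, 1250, 1717, 4606 and 1564 in sham above, and 3995, 1269, 1019, 1433, 6739 and 6235 in coarct above. Its CPM below the ligature was 656, 5576, 6516, 5849 and 7156 in sham below, and 5099, 6544, 946, 1535, 1625 and 5791 in coarct below. Its CPM in brown fat was 9153, 1576, 9798 and 697 in sham BAT, and 4850, 6554, 8738, 1731 and 1444 in coarct BAT. All 17 libraries with high 12S had 3995 to 9798 CPM of 16S, and the 14 with low 12S had 656 to 1731 CPM. The ratio of 12S to 16S CPM was 0.644 ± 0.155 (SD, n = 17) in the former and 0.0489 ± 0.0257 (SD, n = 14) in the latter. The libraries were divided at the widest gap of 12S itself, so these ranges are a description with no test.

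**Figure D3:**
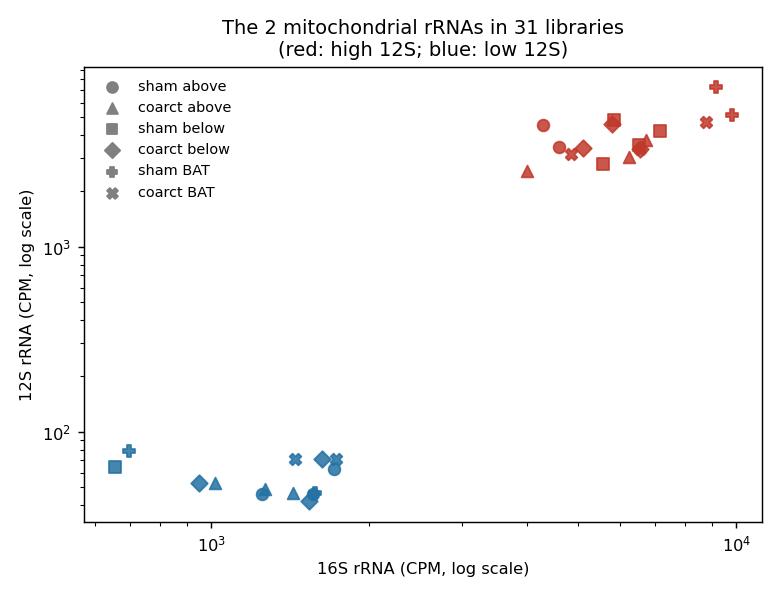
12S rRNA against 16S rRNA in each of 31 libraries (CPM, both axes on a log scale), with a marker for each group and colour for the 12S range. The 17 red libraries lie at 2572 CPM or more of 12S and the 14 blue ones at 79.0 CPM or less, and each of the 6 markers appears on both sides.

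The mRNAs did not share this split. Their summed share of library counts ran from 34.7% to 48.2% with high 12S and from 33.6% to 46.8% with low 12S. For single mRNAs, the median CPM with high 12S was 0.879 to 1.08 times that with low 12S. Most tRNA entries went the other way from 12S, with 11 of 14 on the plus strand and 7 of 8 on the minus strand having a lower median in the libraries with high 12S. The sum of the minus-strand entries hardly differed, with medians of 389 CPM (range 184 to 716) with high and 408 CPM (303 to 887) with low 12S. The plus-strand sum, which is smaller, had medians of 45.9 and 73.8 CPM. AY172581.16, which lies between Mt-nd3 and Mt-nd4l, had a median of 5.45 CPM (range 0.323 to 16.2) with high 12S and 18.5 CPM (12.1 to 86.7) with low 12S. AY172581.23, next to Mt-nd4, had medians of 0.318 and 7.39 CPM.

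Among nuclear genes with a mean above 10 CPM, the 5 most like 12S over the 31 libraries were AABR07015081.1, Exosc5, Hsp90aa1, AABR07015057.1 and AABR07015080.1, with Spearman's rho of 0.80, 0.79, 0.78, 0.76 and 0.75. The AABR entries have no other name in the files, and all 3 lie on chromosome 14. AABR07015057.1 had 40.1 to 692 CPM with high 12S and 6.2 to 26.2 CPM with low 12S. Exosc5, a subunit of the RNA exosome, had 17.5 to 29.3 CPM with high and 6.88 to 17.2 CPM with low 12S. Within each range the likeness was weaker. Within the 17 high libraries rho was 0.48, 0.20, 0.52, -0.061 and -0.017 for these genes in the same order. Within the 14 low libraries it was -0.29, 0.13, 0.15, 0.31 and 0.086.

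The 22 tRNA entries summed to 206 to 996 CPM per library, a small amount beside the mRNAs. tRNAs decode the mitochondrial mRNAs, and an entry of 60 to 75 bases can also collect reads of uncut precursors, so these counts need not stand for mature tRNA. The files give the entries no amino acid, and none is assigned here. AY172581.13, the first entry of the genome, had 0 counts in all 31 libraries, which allows up to 3 counts in each, or 0.113 CPM in the deepest and 0.191 CPM in the shallowest. AY172581.3, between both rRNA genes, had 98 counts in all and none in 18 libraries. The 8 entries of the minus strand held 86.6% of the tRNA counts, but 84.9% fell on 4 of them, AY172581.2, AY172581.18, AY172581.10 and AY172581.7. AY172581.2 alone, on the minus strand at positions 15348 to 15415 as the last entry of the map, held 55.5%.

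AY172581.2 reached its highest values in brown fat. Above the ligature it had, in CPM, 236, 222, 280.3, 229 and 249 in sham above, and 193 at the lowest, 244 at the median and 280.0 at the highest in coarct above. Below the ligature it had, in CPM, 287, 204, 208, 259 and 314 in sham below, and 207 at the lowest, 245 at the median and 299 at the highest in coarct below. In brown fat it had, in CPM, 501, 217, 346 and 508 in sham BAT, and 243, 176, 337, 470.3 and 201 in coarct BAT. In brown fat of both surgeries some libraries stood above all PVAT libraries and others lay within the PVAT range, except coarct BAT 23, which was below it. For the numbers shared by sham below and sham BAT, it was lower in sham below in 4 of 4 pairs. AY172581.8, its neighbour on the plus strand, had 1.05 ± 0.557 CPM (SD, n = 31).

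Before Mt-co1 lies a run of minus-strand entries, AY172581.22, AY172581.18, AY172581.10 and AY172581.7, from position 5010 to 5321. AY172581.22 had 601 counts in all libraries together, and the others had 45314, 28100 and 13547 in that order. AY172581.18 had the next most counts of the tRNA entries after AY172581.2. It had, in CPM, 37.6, 76.5, 44, 123 and 78.3 in sham above, and 44.2 at the lowest, 75 at the median and 115 at the highest in coarct above. Below the ligature its values were, in CPM, 57, 58.6, 4.74, 102 and 123 in sham below, and 31.9 at the lowest, 68.8 at the median and 131 at the highest in coarct below. Brown fat gave, in CPM, 90.9, 59.9, 28.8 and 209 in sham BAT, and 49.5, 3.72, 153, 79.7 and 54.9 in coarct BAT. The lowest values were those of sham below 24 and coarct BAT 23, and every group overlapped the others. Both of these libraries were also low in the sum of all tRNA entries, at 231 and 206 CPM.

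The 13 mRNAs together took overlapping shares of counts in all 6 groups. Above the ligature the share of library counts was 34.7%, 37.6%, 44.3%, 40.6% and 38.7% in sham above, and 37.1% at the lowest, 39.2% at the median and 41.8% at the highest in coarct above. Below it the share was 41.4%, 35.9%, 34.8%, 44.2% and 40.7% in sham below, and 35.4% at the lowest, 38.2% at the median and 44.5% at the highest in coarct below. In brown fat it was 48.2%, 33.6%, 40.8% and 46.8% in sham BAT, and 45.6%, 36.2%, 45.3%, 46.3% and 34.6% in coarct BAT. Brown fat spanned the widest range, from the lowest to the highest of all 31 libraries, and each group overlapped every other. The means were 39.2% ± 3.59 (SD, n = 5) in sham above, 39.3% ± 2.19 (SD, n = 6) in coarct above, 39.4% ± 3.93 (SD, n = 5) in sham below and 38.6% ± 3.36 (SD, n = 6) in coarct below. In brown fat they were 42.3% ± 6.66 (SD, n = 4) in sham BAT and 41.6% ± 5.7 (SD, n = 5) in coarct BAT. A 95% Wilson interval of a single library was at most 0.0486 percentage points wide, which covers counting error only.

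**Figure D4:**
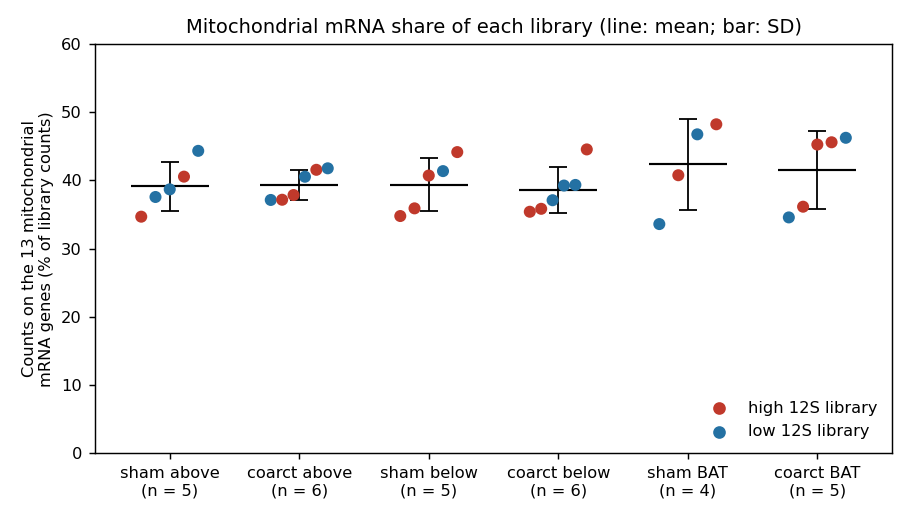
Share of library counts on the 13 mitochondrial mRNA genes (%) for each library, by group, with the group mean (line), the SD (bar) and colour for the 12S range. Group means lie between 38.6% and 42.3%, and each group holds libraries of both colours, with 1 low 12S library in sham below.

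Nuclear genes for subunits of the same complexes, of which 35 of 41 listed names were in the table, as 37 entries, summed to 26326 ± 2380 (SD, n = 5) CPM in sham above and 26004 ± 979 (SD, n = 6) in coarct above. The sum was 25439 ± 2830 (SD, n = 5) CPM in sham below and 24754 ± 2191 (SD, n = 6) in coarct below. It was 21833 ± 2249 (SD, n = 4) CPM in sham BAT and 27318 ± 5135 (SD, n = 5) in coarct BAT. Mitochondrial mRNA counts were 11.8 to 24 times this nuclear sum, and the extremes were sham above 20 and sham BAT 20. Since shares of a library add up to the same total, a rise of the mitochondrial part lowers the nuclear part in CPM.

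Coarctation changed no mitochondrial gene past the threshold of the test used, the edgeR quasi-likelihood test with Benjamini-Hochberg adjustment over all genes and a call at an adjusted p under 0.05. In the 10 comparisons, 338 tests of mitochondrial genes gave 0 calls and 7 with an unadjusted p under 0.05. Over all genes, 352 to 3415 per comparison had such a p, of 13644 to 14556 tested. Thus 7 of 338 was no higher share than that of all genes in any comparison. DESeq2 and limma also called 0 of the members in each comparison. Of the 37 members, all 13 mRNAs and both rRNAs passed the filter on low counts, as did 17 of 22 tRNA entries in the brown fat fit and 19 in the other fits. Comparisons that share a group are not independent of each other. Among all 37 members and 9 pairs of groups, the groups stood apart for AY172581.8 alone, in coarct above against sham above, where 0% of all genes were called. Groups did not overlap for 0.295% of all genes tested there, against 0.24% for the surgeries below the ligature and 1.46% in brown fat. Between sites the share was 0.962% in sham and 0.158% in coarcted rats. Against BAT it was 2.77% for sham above, 2.39% for sham below, 1.98% for coarct above and 3.52% for coarct below. AY172581.8 had 0.465, 0.789, 0.517, 1.12 and 1.17 in sham above, and 1.26 at the lowest, 1.37 at the median and 1.73 at the highest in coarct above, all in CPM, and the fit gave 0.89 (SE 0.47, edgeR adjusted p = 0.999). These are few reads, 643 in all libraries together.

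Above the ligature, 0% of 14556 genes were called between coarctation and sham, and 523 had an unadjusted p under 0.05. The median log2 difference of the 13 mRNAs was 0.086, with 9 higher and 4 lower, beside 0.0055 over all genes tested. Mt-nd1, a complex I subunit, differed most among the mRNAs at 0.26 (SE 0.15, edgeR adjusted p = 0.999). Skeletal muscle markers, 8 tested, had a median of 4.87 in this comparison with 0 called and 5 at that p, and their part was not tested. The group medians of their sum went the other way, at 18.4 CPM in coarct above and 25.9 CPM in sham above. The highest library had 1914 CPM in coarct above and 35.2 CPM in sham above. The 16S rRNA differed by 0.49 (SE 0.64, edgeR adjusted p = 0.999) and AY172581.11 by -1.22 (SE 1.18, edgeR adjusted p = 0.999). Without sham above 20 the mRNA median was -0.0063, and with the high 12S libraries alone it was 0.31 against -0.053 with the low ones.

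In PVAT below the ligature, 0% of genes were called and 746 had an unadjusted p under 0.05. All 13 mRNAs had lower fitted values after coarctation, with a median log2 difference of -0.19 beside 0.014 over all genes. Without the scaling between libraries in the fit (TMM), the mean mRNA share of library counts was 39.4% in sham below and 38.6% in coarct below. The nuclear subunit list was also lower in 37 of 37 entries, with a median of -0.16, 0 called and 3 at that p. Brown adipocyte markers had a higher fitted value in only 2 of 10, with a median of -0.15, 0 called and 0 at that p. Fitted values were higher for 9 of 9 sympathetic neuron markers (median 1.73, 2 at that p), 8 of 8 skeletal muscle and 5 of 5 erythroid markers, with 0 called. The part of the cells of these lists was not tested. Among the mRNAs Mt-nd6 differed most. Its CPM was 5406, 2268, 2325, 4183 and 3284 in sham below, and 1922 at the lowest, 2477 at the median and 2729 at the highest in coarct below. Sham below 22 and 24 lay within the coarct range, and sham below 20, 26 and 28 lay above it. The fitted log2 difference came to -0.66 (SE 0.22, edgeR adjusted p = 0.881) at an unadjusted p of 0.00737. Without sham below 20 it was -0.45. Mt-nd3, a small membrane subunit of complex I, differed by -0.47 (SE 0.17, edgeR adjusted p = 0.881). The 12S rRNA differed by -0.73 (SE 1.45, edgeR adjusted p = 0.952) and AY172581.12 by -1.63 (SE 0.81, edgeR adjusted p = 0.881). The mRNA median was -0.32 without sham below 24, and -0.018 in limma on log2(FPKM + 1).

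Above the ligature Mt-nd6 differed by -0.11 (SE 0.22, edgeR adjusted p = 0.999) between surgeries. Its CPM there was 1980, 2741, 3218, 3821 and 1984 in sham above, and 2131 at the lowest, 2403 at the median and 2902 at the highest in coarct above. In brown fat it was 2835, 1598, 3187 and 1877 in sham BAT, and 1323, 1587, 4879, 2751 and 1533 in coarct BAT. Values of coarct libraries lay within the sham range above the ligature, and in brown fat the coarct group spanned the whole sham range. The test of the difference between sites, an interaction contrast, gave 0.56 (SE 0.32, edgeR adjusted p = 1) for Mt-nd6. That contrast called 0% of all genes, and 352 reached an unadjusted p under 0.05. All 13 mRNAs had positive fitted values in it, with a median of 0.25 beside 0.0042 over all genes, and 0.073 in limma. Without TMM scaling, the mean mRNA shares of library counts lay between 38.6% and 39.4% in the PVAT groups. The nuclear subunit list was positive in 36 of 37 entries, with a median of 0.19. Brown adipocyte markers were positive in 8 of 10 (median 0.15, 0 at that p). Skeletal muscle markers were positive in 8 of 8 (median 4.16, 1 at that p) and erythroid markers negative in 5 of 5 (median -1.56, 5 at that p), with 0 called in these lists, and their part was not tested. The median skeletal muscle sum was 18.4 CPM in coarct above and 25.9 CPM in sham above. It was 8.36 CPM in coarct below and 6.94 CPM in sham below. Single libraries reached 1914 CPM in coarct above, 2932 CPM in coarct below and 845 CPM in sham below. The 16S rRNA stood at 1.08 (SE 0.91, edgeR adjusted p = 1) and AY172581.12 at 1.52 (SE 1.16, edgeR adjusted p = 1).

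In brown fat 0% of 13644 genes were called between coarctation and sham, and 928 had an unadjusted p under 0.05. The mRNA median was 0.074, with 9 higher and 4 lower, beside 0.042 over all genes. It changed sign to -0.15 without sham BAT 22 and to -0.10 in limma, and it was -0.27 with the high 12S libraries and 0.31 with the low ones. Mt-nd5 differed most at 0.46 (SE 0.56, edgeR adjusted p = 0.784), 12S differed by -0.51 (SE 1.39, edgeR adjusted p = 0.911) and AY172581.23 by 2.77 (SE 1.69, edgeR adjusted p = 0.657). The nuclear subunit list had 37 of 37 entries with a higher fitted value after coarctation, a median of 0.53, and 0 calls, with 9 at an unadjusted p under 0.05.

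The abundant mRNAs showed the same overlap of surgeries. Mt-co3 had, in CPM, 53798, 56925, 71750, 61278 and 60447 in sham above, and 57132 at the lowest, 61796 at the median and 66501 at the highest in coarct above. Below the ligature Mt-co3 had, in CPM, 58520, 54793, 56802, 70022 and 65687 in sham below, and 55346 at the lowest, 62473 at the median and 75714 at the highest in coarct below. Its CPM in brown fat was 67776, 55397, 65170 and 64087 in sham BAT, and 75254, 61565, 69795, 60574 and 56286 in coarct BAT. Coarct and sham ranges overlapped in all 3 tissues. Mt-co1 had, in CPM, 117648, 105339, 124756, 113748 and 106875 in sham above, and 100928 at the lowest, 109795 at the median and 115784 at the highest in coarct above. Below the ligature Mt-co1 had, in CPM, 122487, 102211, 103094, 118102 and 89648 in sham below, and 93071 at the lowest, 103483 at the median and 124709 at the highest in coarct below. Mt-co1 in brown fat had, in CPM, 144429, 92763, 82217 and 155880 in sham BAT, and 135066, 102530, 103732, 150120 and 97630 in coarct BAT. The spread of Mt-co1 was widest in brown fat, where sham BAT 24 was the lowest and sham BAT 26 the highest of all 31 libraries.

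Mt-atp6 was lowest in sham above 20 and sham below 24. Its values in CPM were 36250, 50007, 63508, 54930 and 52800 in sham above, and 47881 at the lowest, 53076 at the median and 57766 at the highest in coarct above. The values below the ligature were 53846, 46691, 36956, 63564 and 57909 in sham below, and 45316 at the lowest, 51722 at the median and 62140 at the highest in coarct below. The values in brown fat were 64101, 46018, 57698 and 58937 in sham BAT, and 63554, 44396, 62366, 53856 and 47419 in coarct BAT. For Mt-cyb, the lowest library was again sham above 20. Mt-cyb had, in CPM, 29185, 41522, 44884, 39292 and 41814 in sham above, and 38936 at the lowest, 42195 at the median and 44822 at the highest in coarct above. Below the ligature Mt-cyb had, in CPM, 37169, 36939, 37730, 40559 and 45366 in sham below, and 36182 at the lowest, 41175 at the median and 46741 at the highest in coarct below. Mt-cyb in brown fat had, in CPM, 44630, 35639, 55626 and 43549 in sham BAT, and 49592, 37214, 49604, 47340 and 38854 in coarct BAT. No pair of groups stood apart for either gene.

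The site above and below the ligature was compared within each surgery. In sham rats 0.0687% of 14556 genes were called, and in coarcted rats 0.103%, with no mitochondrial gene among them. The unadjusted p was under 0.05 for none of the 13 mRNAs in either comparison. All 13 mRNAs were lower above than below in sham rats by the fit, with a median log2 difference of -0.20 beside -0.017 over all genes. Without the scaling between libraries in the fit (TMM), the mean mRNA share of library counts was 39.2% in sham above and 39.4% in sham below. In coarcted rats 10 mRNAs were higher and 3 lower by the fit, with a median of 0.072 beside 0.0052, and -0.0053 without coarct above 29. Mt-atp8 differed most in both, at -0.75 (SE 0.49, edgeR adjusted p = 0.944) in sham and -0.31 (SE 0.44, edgeR adjusted p = 1) in coarcted rats. The 12S rRNA differed by -1.08 (SE 1.53, edgeR adjusted p = 0.998) in sham and -0.22 (SE 1.38, edgeR adjusted p = 1) in coarcted rats. Among tRNA entries, AY172581.12 differed most in sham rats at -1.22 (SE 0.84, edgeR adjusted p = 0.953) and AY172581.5 in coarcted rats at -0.90 (SE 0.74, edgeR adjusted p = 1). The cardiac muscle markers, abundant in cells rich in mitochondria, were higher above in 6 called genes of 10 tested in sham and 7 of 10 in coarcted rats, and their part in the mitochondrial values was not tested. Sympathetic neuron markers had lower fitted values above in 9 of 9, with a median of -4.20 in sham (6 at an unadjusted p under 0.05) and -7.05 in coarcted rats (9 at that p), where DESeq2 called 7 and edgeR 0. In sham rats the median sum of this list was not lower above, at 11.5 CPM against 10.1 CPM below. Single libraries of sham below ran from 7.49 to 289 CPM. In coarcted rats the median sum was 9.92 CPM above and 258 CPM below. Macrophage markers were higher above in 9 of 9 in sham rats, with 6 at that p and 0 called. The nuclear subunit list was higher above in 36 of 37 entries in coarcted and 6 of 37 in sham rats, with 0 called. Brown adipocyte markers were higher above in 8 of 10 in coarcted and 5 of 10 in sham rats, with 0 called. The part of these cells was not tested either.

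PVAT was compared with BAT in 4 comparisons, which called 0.648% of 14190 genes for sham above, 0.81% for sham below, 1.28% of 14276 for coarct above and 4.2% for coarct below. None of the called genes was mitochondrial. Most mRNAs had lower fitted values in PVAT, with 12 of 13 lower in sham above, 11 in sham below and 13 in both coarct groups. Their median log2 difference was -0.29 and -0.18 for sham above and sham below, and -0.26 and -0.33 for coarct above and coarct below. Over all genes tested the medians were -0.017, -0.021, -0.0083 and 0.0021. With the low 12S libraries alone the median was 0.075 for sham above and 0.11 for sham below, where sham below had 1 library. With the high ones it was -0.68 and -0.35. Without sham BAT 20 it was 0.010 for sham below. For the coarct groups it stayed negative on both 12S sides, at -0.19 and -0.35 above and -0.22 and -0.40 below the ligature. The nuclear subunit list had higher fitted values in PVAT for 29 of 37 entries in sham above and 34 in sham below, and lower ones for 34 in coarct above and 35 in coarct below. Skeletal muscle transcripts were higher in the median of sham BAT than of the PVAT groups, as given above, with 2 called lower in sham above. Cardiac muscle markers were called higher than in BAT in 8 of 10 tested for sham above (median 7.95) and 8 of 10 for coarct above (median 8.18). In coarct below, 3 of 5 erythroid and 1 of 4 sympathetic neuron markers were called higher than in BAT. Brown adipocyte markers had higher fitted values than in BAT for 5 of 10 in sham above and 6 of 10 in sham below (medians -0.011 and 0.069). The same held for 3 of 10 in coarct above and 2 of 10 in coarct below (medians -0.17 and -0.26), with 0 called by edgeR. The part of these cells was not tested.

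Mt-atp8 was the mRNA with the widest differences between the tissues. Above the ligature it had, in CPM, 69.3, 142, 111, 171 and 168 in sham above, and 75.5 at the lowest, 155 at the median and 196 at the highest in coarct above. Below the ligature it had, in CPM, 139, 115, 40.6, 162 and 555 in sham below, and 115 at the lowest, 153 at the median and 385 at the highest in coarct below. In brown fat it had, in CPM, 507, 134, 575 and 233 in sham BAT, and 106, 96.7, 511, 343 and 158 in coarct BAT. Brown fat held both low and high libraries, and sham below 28 and coarct below 30 lay within the upper part of the brown fat range. For the numbers shared by sham below and sham BAT, Mt-atp8 was lower in sham below in 4 of 4 pairs. Its log2 difference from BAT was -1.66 (SE 0.62, edgeR adjusted p = 0.443) in sham above and -0.91 (SE 0.61, edgeR adjusted p = 0.715) in sham below. In coarcted rats it was -0.93 (SE 0.44, edgeR adjusted p = 0.298) above and -0.63 (SE 0.44, edgeR adjusted p = 0.389) below. These values were among the 7 with an unadjusted p under 0.05 for sham above and coarct above. The fits did not pair libraries by number.

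AY172581.2 differed between sham PVAT and sham BAT by -0.87 (SE 0.27, edgeR adjusted p = 0.27) above and -0.70 (SE 0.27, edgeR adjusted p = 0.334) below, in a fit that did not pair libraries by number. Without sham BAT 22 the first difference was -1.12 and passed the threshold, the single call of a mitochondrial gene among the 7 differences and the mRNA counts tried under other settings. In coarcted rats the differences were -0.49 (SE 0.27, edgeR adjusted p = 0.372) above and -0.49 (SE 0.27, edgeR adjusted p = 0.275) below. Mt-co2 differed by -0.42 (SE 0.20, edgeR adjusted p = 0.209) between coarct below and coarct BAT. The 12S rRNA differed from BAT by -1.23 (SE 1.53, edgeR adjusted p = 0.942) in sham above and -0.16 (SE 1.52, edgeR adjusted p = 0.989) in sham below. It differed by -0.57 (SE 1.41, edgeR adjusted p = 0.857) in coarct above, and 16S by -0.53 (SE 0.64, edgeR adjusted p = 0.634) in coarct below. The largest differences among tRNA entries were 1.77 (SE 1.11, edgeR adjusted p = 0.779) for AY172581.4 in sham above and 1.81 (SE 1.14, edgeR adjusted p = 0.676) for AY172581.21 in sham below. For AY172581.11 they were -2.03 in coarct above (edgeR adjusted p = 0.413) and -1.35 (SE 1.19, edgeR adjusted p = 0.5) in coarct below.

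**Figure D5:**
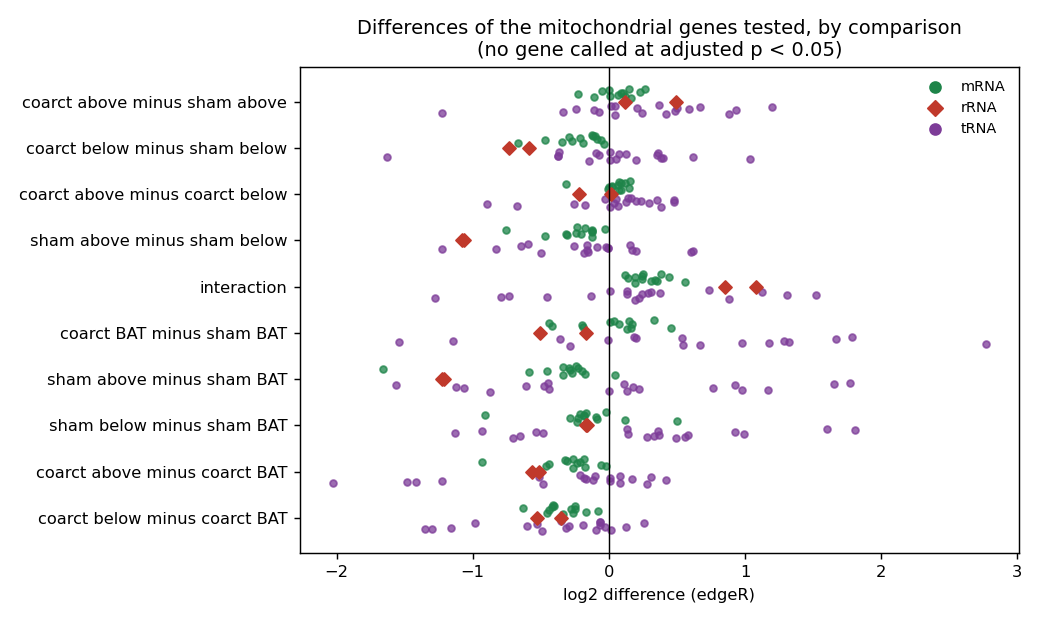
Log2 difference (edgeR) of each mitochondrial gene tested, by comparison, with circles for mRNAs and tRNA entries and diamonds for both rRNAs. The mRNAs lie from -1.66 to 0.56, the tRNA entries from -2.03 to 2.77, and no gene passes the threshold.

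Nuclear genes that copy, transcribe and process mitochondrial DNA and RNA also passed no threshold of the same test. Of 19 genes for transcription and replication of mitochondrial DNA, 26 tested entries for RNA processing and decay and 10 regulators of mitochondrial biogenesis, 0 were called in each of the 10 comparisons. Their 550 tests held 38 with an unadjusted p under 0.05, the lowest adjusted p was 0.0643 (edgeR), and DESeq2 called 3 and limma 1. Over all genes, 352 to 3415 per comparison had such an unadjusted p (edgeR), of 13644 to 14556 tested. The DESeq2 and limma calls lay in the comparisons of coarct PVAT with coarct BAT. There edgeR called 1.28% of all genes for coarct above and 4.2% for coarct below, its highest shares. The shares of the lists were not tested against those of all genes. Tfam, which packages mitochondrial DNA and starts its transcription, ran from 26.5 to 50.2 CPM over the 31 libraries. Polrmt, the mitochondrial RNA polymerase, ran from 22.8 to 51.2 CPM and Lrpprc, which stabilises mitochondrial mRNAs, from 255 to 506 CPM. Ppargc1a, a coactivator that drives mitochondrial biogenesis, ran from 3.31 CPM in coarct BAT 29 to 53 CPM in sham above 24.

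After coarctation, Tfam differed by -0.047 (SE 0.11, edgeR adjusted p = 0.999) above and -0.18 (SE 0.11, edgeR adjusted p = 0.881) below the ligature, and by 0.37 (SE 0.25, edgeR adjusted p = 0.665) in brown fat. Polrmt differed by 0.29 (SE 0.15, edgeR adjusted p = 0.999) above and 0.10 (SE 0.15, edgeR adjusted p = 0.94) below. Lrpprc differed by 0.31 (SE 0.17, edgeR adjusted p = 0.999) above and 0.0044 (SE 0.17, edgeR adjusted p = 0.998) below. Ppargc1a differed by -0.88 (SE 0.41, edgeR adjusted p = 0.999) above, with an unadjusted p of 0.0438, and by -0.45 (SE 0.41, edgeR adjusted p = 0.894) below. Ucp1 differed by -0.11 (SE 0.22, edgeR adjusted p = 0.999) above and -0.28 (SE 0.22, edgeR adjusted p = 0.881) below. Of the nuclear subunit list, Ndufb10, an accessory subunit of complex I, was called in 1 comparison, between coarct below and coarct BAT, at -0.64 (SE 0.16, edgeR adjusted p = 0.0282). The list had a median of -0.44 there, with 35 of 37 entries lower, and DESeq2 called 7 of its entries. Over all 14276 genes tested in that comparison edgeR called 4.2%, or 600 genes, so 1 of 37 is no higher share by edgeR. DESeq2 called 1389 genes, so its 7 of 37 is a higher share than that of all genes. At an unadjusted p under 0.05 (edgeR) were 19 of 37 entries and 3415 of all genes, again a higher share for the list. The shares were not tested against each other.

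The nuclear genes most like the summed mitochondrial mRNA over the 31 libraries were Etfb, Chchd3, Cidea, Coq7 and Rpsa, with Spearman's rho of 0.68, 0.59, 0.57, 0.56 and 0.54. Etfb encodes a subunit of the electron transfer flavoprotein, Chchd3 a protein of the inner membrane folds, and Coq7 an enzyme of ubiquinone synthesis. Cidea encodes a lipid droplet protein of brown adipocytes and Rpsa a protein of the cytosolic ribosome. Etfb held its likeness on both 12S sides, at 0.64 over 17 and 0.72 over 14 libraries. For Chchd3 rho was 0.34 and 0.86, for Cidea 0.63 and 0.48, for Coq7 0.40 and 0.89, and for Rpsa 0.62 and 0.38. All of these values share the library totals as denominator and were picked as the highest of all genes, so they are given as a description.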

How the data were processed

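The authors deposited whole-number read counts per Ensembl gene, not normalised, and FPKM values. The submitters' processing notes name STAR 2.5, HTSeq 0.6.1 and DESeq2 1.24.0. The build, annotation release and strand setting of counting are given in no source used here. The FPKM values equalled count over gene length and library total (largest relative deviation 6.88e-15), from which gene lengths were taken.

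Deposited counts went into edgeR 4.0.16 under R 4.3.3 (TMM, filterByExpr, quasi-likelihood F test) on all genes, at a Benjamini-Hochberg adjusted p under 0.05. PVAT comparisons shared 22 libraries, BAT used 9, and comparisons with BAT used 14 sham or 17 coarct libraries. SE is the absolute log2 difference over the square root of F. Sums over members have no test. The test was checked on simulated data. Alternatives were DESeq2 1.42.0, limma 3.58.1 on log2(FPKM + 1), other scalings, fits by 12S side, a replicate block and leaving out each library. Titles give libraries the same number, and no source says that a number is 1 rat, so p-values reflect spread among these libraries, which may be technical. Same-number deviations correlated over 0.1 in every pair (4 of 4, 0.195 to 0.381) for sham below and sham BAT, which were taken as paired. There the blocked fit called 0 mitochondrial mRNAs. The differences and p-values printed for sham below and sham BAT are from the fit without the block.

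The members, lists and named genes were chosen with earlier results of these data known. Named were the members with values per library, the member of each class that differed most in each comparison, fixed nuclear genes, called genes of the lists, and the 5 nuclear genes most like the mRNA sum or 12S. AY172581.8, AY172581.16, AY172581.23, Mt-nd3, Mt-co2, Ndufb10 and the values of Mt-nd5 per library were chosen after their values were seen.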

Additional observations from a re-analysis of the deposited data

Results flagged for a closer look

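Values far from the rest of their group were looked for in 72 sets, of 10 members and 2 sums in 6 groups, by Dixon's test, which chance passes in about 1 set in 20. The test picked out 3 values. The 16S rRNA of sham below 20 was 656 CPM, against 5576 to 7156 CPM in the other 4 libraries, and this library is the 1 with low 12S in its group. Mt-atp8 was 555.5 CPM in sham below 28, against 40.6 to 162 CPM in the others, and this library had the most positive length slope of nuclear genes (0.21). Mt-atp8 was 385 CPM in coarct below 30, against 115 to 190 CPM in the other 5 libraries, with a length slope of 0.12. The part of the length trend in these values was not tested.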

How the results depend on the processing

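No mitochondrial mRNA was called under any of the 96 alternatives or in the 115 fits that left out a library, counted over the 10 comparisons. The 7 single differences with an unadjusted p under 0.05 kept their direction in all alternatives and gained a call in 1, AY172581.2 for sham above and sham BAT without sham BAT 22 (-1.12). The mRNA median moved by more than the spread between libraries in these cases, whose cause was not tested. With high 12S libraries alone it was 0.31 for coarct above minus sham above, -0.27 for coarct BAT minus sham BAT and -0.68 for sham above minus sham BAT. With low 12S libraries alone it was -0.37 for coarct below minus sham below, where sham below had 1 library, 0.075 for sham above minus sham BAT and 0.11 for sham below minus sham BAT, again with 1 library of sham below. With limma on log2(FPKM + 1) it was -0.018 for coarct below minus sham below, 0.073 for the interaction and -0.047 for coarct below minus coarct BAT. Leaving out libraries gave -0.32 to -0.084 for coarct below minus sham below. As a percent of summed FPKM, the mRNA share was 52.0% in sham above, 52.9% in sham below, 56.3% in sham BAT, 52.7% in coarct above, 52.3% in coarct below and 53.8% in coarct BAT. For that share, a total without mitochondrial rRNA and tRNA entries and leaving out libraries moved no group mean by more than its SD.

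Calls over all genes depended more on the setting. DESeq2 called 222 genes for coarct above minus coarct below (15 with edgeR), 44 for sham above minus sham below (10), 232 for sham above minus sham BAT (92), 327 for sham below minus sham BAT (115), 507 for coarct above minus coarct BAT (183) and 1389 for coarct below minus coarct BAT (600). It called 8 for coarct above minus sham above and 1 for coarct below minus sham below, where edgeR called 0. Limma called 4, 7, 71, 34, 60 and 476 in the 6 comparisons of site and depot in that order, and a fit of all 31 libraries called 183, 16, 110, 122, 186 and 803. With high 12S libraries alone the calls were 0, 0, 1, 0, 10 and 19, and with low ones 9, 13, 48, 8, 16 and 0, where 13 and 8 rest on 1 library of sham below, assumed to vary like the other groups. Without coarct below 19 or 27 the count for coarct above minus coarct below was 185 or 180, without sham above 20 that for sham above minus sham below was 23, without sham below 28 that for coarct below minus sham below was 169, and without sham BAT 22 that for coarct BAT minus sham BAT was 1. Without sham BAT 20 the count for sham above minus sham BAT was 59, and sham below minus sham BAT gave 47 to 65 without sham below 20 or 22 or any 1 library of sham BAT. Coarct above minus coarct BAT gave 89 to 113 without coarct above 23, 25 or 27 or coarct BAT 19 or 29, and 913 without coarct BAT 27. Coarct below minus coarct BAT gave 284 and 307 without coarct below 25 and 23, and 2621 without coarct BAT 27. With the replicate block, mitochondrial mRNA calls were 0 in the 6 comparisons, and all-gene calls were 42 for coarct above minus coarct below, 56 for sham above minus sham below, 110 and 154 for sham above and sham below minus sham BAT, and 283 and 958 for coarct above and coarct below minus coarct BAT. Outside sham below and sham BAT the numbers were not taken to pair the libraries. Over 0.1 were 5 of 6, 3 of 5, 1 of 4, 3 of 5 and 4 of 5 pairs, and 4, 3, 1, 3 and 4 libraries correlated best with their own number.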
